A study of Mus musculus with 8 samples.

Results

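The lysyl oxidases Lox, Loxl1, Loxl2, Loxl3 and Loxl4 and the lysyl hydroxylases Plod1, Plod2 and Plod3 are the enzyme genes that prepare and form the crosslinks of collagen and elastin. These 8 genes were taken by symbol from the 55488 genes of the deposited tables, and all 8 were found. They were read in bulk RNA-seq of dorsal skin from 3-month-old mice, with 4 wild-type libraries (labelled WT) and 4 libraries from mice labelled TPH1 knockout. Tph1 encodes the tryptophan hydroxylase that starts serotonin synthesis outside the brain, and the comparison asks what its loss does to epidermis and dermis. The allele of the knockout, the strain, the sex and whether the loss is limited to any cell type are not given in the sources used here, nor is it stated that each library came from a separate mouse. p-values therefore measure the spread between these libraries, which may be partly technical.

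Collagen crosslinking runs in steps. Inside the cell, lysyl hydroxylases add a hydroxyl group to lysines of the collagen chain. Plod1 encodes lysyl hydroxylase 1, which acts mainly on lysines of the triple helix. Plod2 encodes lysyl hydroxylase 2, which acts on the short ends outside the helix, and Plod3 encodes lysyl hydroxylase 3, which also attaches sugars to hydroxylysine. Outside the cell, copper-dependent lysyl oxidases turn lysines and hydroxylysines into aldehydes that then react with neighbouring chains. Hydroxylysine at the chain ends gives the crosslinks typical of bone and scars, while normal skin mostly uses crosslinks from unmodified lysine. Lox acts on collagen and elastin, Loxl1 is known for elastic fibre upkeep, and Loxl2, Loxl3 and Loxl4 carry additional scavenger receptor domains.

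The libraries held 20531601 to 24678638 expected counts. Tph1 had 18, 0, 27 and 11 counts in wild type replicates 1 to 4 and 0 counts in each of the 4 knockout libraries, so wild type replicate 2 could not be told from a knockout by this gene (exact permutation test, two-sided, p = 0.143). Summed, the 56 wild-type counts were at least 18.1-fold higher than a floor of 3 counts for the knockout group, and the smallest p this design allows is 0.0286. The tissue label was checked against markers. The basal keratin gene Krt5 was at 3590 to 10600 CPM (counts scaled to library size with TMM factors) and the fibroblast gene Dcn at 157 to 630 CPM, and all 10 fibroblast markers passed the filter on low counts. The skeletal muscle myosin gene Myh4 was at 3300 to 25700 CPM, so the pieces also held muscle RNA in varying amounts. In bulk tissue, fewer cells of a type and less RNA per cell cannot be told apart.

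Plod3, Plod1 and Loxl1 were the highest of the 8 genes in skin when levels were compared per length, in TPM (counts scaled to transcript length and to the library). Averaged over 8 libraries, Plod3 was at 32.8 TPM, with 24.9 to 41.9 in single libraries, and Plod1 was at 18.6 TPM, with 14.5 to 24.5. Plod3 lay above Plod1 in 8 of 8 libraries. Loxl1 was the highest lysyl oxidase gene at 12.7 TPM (6.21 to 25.7) and lay below Plod1 in 7 of 8 libraries, the exception being wild type replicate 1. Loxl2 followed at 5.41 TPM (2.17 to 13.3), below Loxl1 in 8 of 8 libraries. The lower members were Plod2 at 3.69, Lox at 2.69, Loxl3 at 2.29 and Loxl4 at 1.39 TPM on average. Neighbours in this lower range did not keep their order: Loxl2 lay above Plod2 in 4 of 4 wild-type but only 2 of 4 knockout libraries, Lox above Loxl3 in 6 of 8 libraries, and Loxl3 above Loxl4 in 7 of 8.

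None of the 8 genes passed the test between genotypes, and the member with the smallest p was Loxl1, with lower levels in the knockout libraries. All 8 passed the filter on low counts, with 44 to 1493 counts per gene and library. At an adjusted p under 0.05, edgeR called 0 of the 8, against 110 of 16908 genes tested (0.651%), and DESeq2 on the same counts also called 0 of the 8, against 994 of the 16213 genes it gave an adjusted p (6.13%). At an unadjusted p under 0.05, edgeR counted 1 of the 8, Loxl1, against 2981 of all genes (17.6%). The median log2 fold change, knockout over wild type, was -0.11 over the 8 genes and 0.03 over all genes tested. In CPM, 1 member had all 4 knockout libraries below all 4 wild-type libraries (5.65% of all genes) and 0 had all of them above (5.39%).

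**Figure D1:**
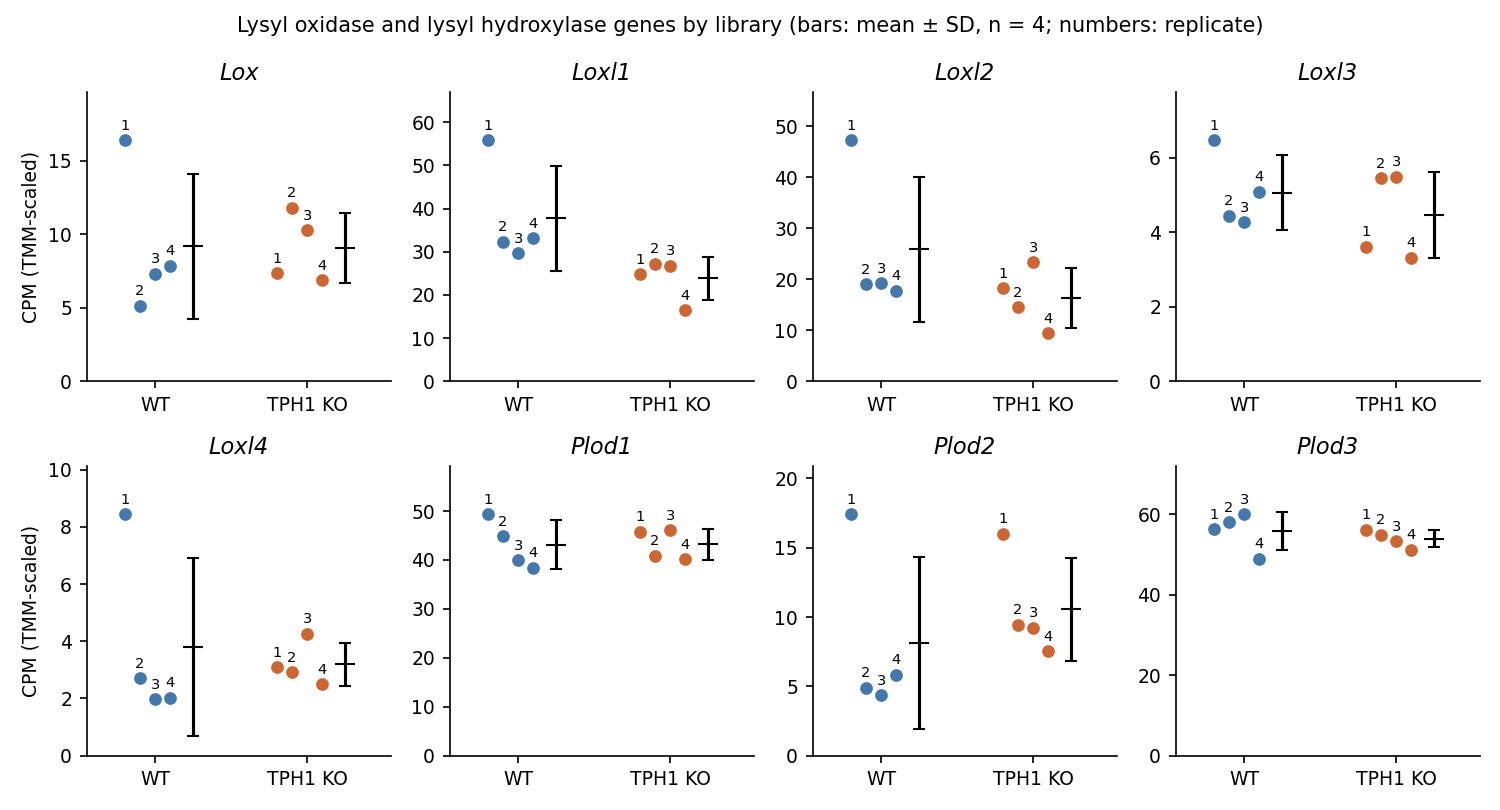
CPM of the 8 genes (vertical axis, from 0) in the 4 wild-type and 4 TPH1 knockout libraries (points, numbered by replicate), with mean ± SD beside each group. Wild type replicate 1 is the highest point for every gene but Plod3, and Loxl1 is the gene whose groups are apart.

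Loxl1 (ENSMUSG00000032334, chromosome 9 from 58287738 to 58313186, minus strand, GRCm38), the oxidase that keeps up elastic fibres, was at 55.8, 32.3, 29.7 and 33.2 CPM in wild type replicates 1 to 4. It was at 24.8, 27.2, 26.8 and 16.5 CPM in knockout replicates 1 to 4. All 4 knockout values were thus lower than all 4 wild-type values, by a narrow margin between 29.7 and 27.2 CPM. The means were 37.8 ± 12.1 CPM (SD, n = 4) in wild type against 23.8 ± 4.99 in knockout, and the fitted log2 fold change was -0.66 ± 0.23 SE (adjusted p = 0.202, edgeR), which is 0.63 times the wild-type level. Without wild type replicate 1 the log2 fold change was -0.41 ± 0.18 SE (adjusted p = 0.289, edgeR). The groups stayed apart, which was fixed in advance, since leaving out a library cannot make separate groups overlap. With the mean level of 14 tissue handling genes as a covariate it was -0.39 ± 0.34 SE (unadjusted p = 0.282, adjusted p = 0.813, edgeR). On the TPM scale the groups overlapped, since knockout replicate 3 was at 13.1 TPM and wild type replicates 3 and 4 at 12.3 and 11.9.

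Loxl2 (ENSMUSG00000034205, chromosome 14 from 69609068 to 69695834, plus strand), an oxidase with scavenger receptor domains, was at 47.3, 19.1, 19.3 and 17.8 CPM in wild type against 18.3, 14.6, 23.4 and 9.47 in knockout. Wild type replicate 1 was more than double any other wild-type library, and the other 3 sat inside the knockout range. The log2 fold change was -0.65 ± 0.37 SE (adjusted p = 0.375, edgeR), and -0.19 ± 0.27 (adjusted p = 0.748) without that library. Loxl2 overlaps Gm27177, an antisense gene with 44 to 365 counts per library, 7.57% to 48.0% of the counts of the pair. Gm27177 had a log2 fold change of -1.29 (adjusted p = 0.166, edgeR). The library kit, named as NEBNext Ultra, was taken as not marking strand, which was not checked. Reads from where the gene spans overlap then cannot be told apart, and overlap of exons was not examined.

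Lox (ENSMUSG00000024529, chromosome 18 from 52516067 to 52529867, minus strand), the founding member of the family, had nearly the same mean in both genotypes. It was at 16.4, 5.15, 7.32 and 7.88 CPM in wild type against 7.36, 11.8, 10.3 and 6.87 in knockout, so the knockout libraries lay within the wild-type range. The means were 9.20 ± 4.97 and 9.08 ± 2.36 CPM (SD, n = 4 each), and the fitted log2 difference was -0.02 ± 0.35 SE (adjusted p = 0.983, edgeR). The sign was not stable: without wild type replicate 1 the value was 0.42 ± 0.26 (SE, adjusted p = 0.442), and the groups still overlapped.

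Loxl3 (ENSMUSG00000000693, chromosome 6 from 83034173 to 83052562, plus strand) was low throughout, at 6.47, 4.44, 4.27 and 5.09 CPM in wild type against 3.61, 5.45, 5.49 and 3.32 in knockout. Its groups overlapped, with a log2 fold change of -0.18 ± 0.25 SE (adjusted p = 0.733, edgeR). Its effective length, which RSEM averages over the transcripts it assigns reads to, ranged from 1831 bases in knockout replicate 3 to 3730 in knockout replicate 1. In TPM the highest Loxl3 library was knockout replicate 3 (4.59), while in CPM it was wild type replicate 1. Loxl3 also overlaps Htra2, a protein-coding gene on the other strand with 363 to 527 counts per library.

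Loxl4 (ENSMUSG00000025185, chromosome 19 from 42593982 to 42612813, minus strand) was the least abundant member, with 44 to 223 counts. It was at 8.43, 2.71, 1.98 and 2.03 CPM in wild type against 3.10, 2.91, 4.27 and 2.5 in knockout. The knockout libraries lay between the first wild-type library and the other 3, with only knockout replicate 4 below wild type replicate 2. The log2 fold change was -0.25 ± 0.48 SE (adjusted p = 0.815, edgeR) with all libraries and 0.51 ± 0.30 (adjusted p = 0.404) without wild type replicate 1.

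Plod1 and Plod3 were the steadiest members in CPM. Plod1 (ENSMUSG00000019055, chromosome 4 from 147909753 to 147936767, minus strand), the helix hydroxylase gene, was at 49.3, 44.9, 39.9 and 38.4 CPM in wild type against 45.8, 40.9, 46.1 and 40.1 in knockout. Its log2 fold change was 0.0037 ± 0.12 SE (adjusted p = 0.990, edgeR). Plod3 (ENSMUSG00000004846, chromosome 5 from 136987019 to 136996648, plus strand), the hydroxylase that also adds sugars, was at 56.4, 58.1, 60.0 and 49.0 CPM in wild type against 56.2, 55.0, 53.4 and 51.2 in knockout. Its log2 fold change was -0.05 ± 0.10 SE (adjusted p = 0.825, edgeR). For both genes the knockout libraries lay inside the wild-type range. Plod3 overlaps Znhit1 on the other strand, which had 517 to 1014 counts per library.

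Plod2 (ENSMUSG00000032374, chromosome 9 from 92542223 to 92608428, plus strand, overlapped by Gm38391 with 5 to 22 counts), the hydroxylase of the chain ends, was the only member with a fitted log2 fold change above 0.1. It was at 17.4, 4.89, 4.36 and 5.85 CPM in wild type against 16, 9.45, 9.24 and 7.55 in knockout. Of the wild-type libraries 3 lay below all 4 knockout libraries and replicate 1 lay above all 4. With all libraries the log2 fold change was 0.37 ± 0.45 SE (adjusted p = 0.688, edgeR). Without wild type replicate 1 it was 1.07 ± 0.29 (SE, unadjusted p = 0.00495, adjusted p = 0.161), from 5.03 ± 0.756 CPM (SD, n = 3) to 10.6 ± 3.73 (SD, n = 4), and it did not pass. In that reduced set 8.27% of all genes had every knockout library above every wild-type library, and 9.3% had every one below, as Loxl1 already did with all libraries. At an unadjusted p under 0.05 there were 2 of the 8, Plod2 and Loxl1, against 16.8% of all genes. edgeR then called 0 of the 8 members against 26 of 17187 genes (0.151%).

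**Figure D2:**
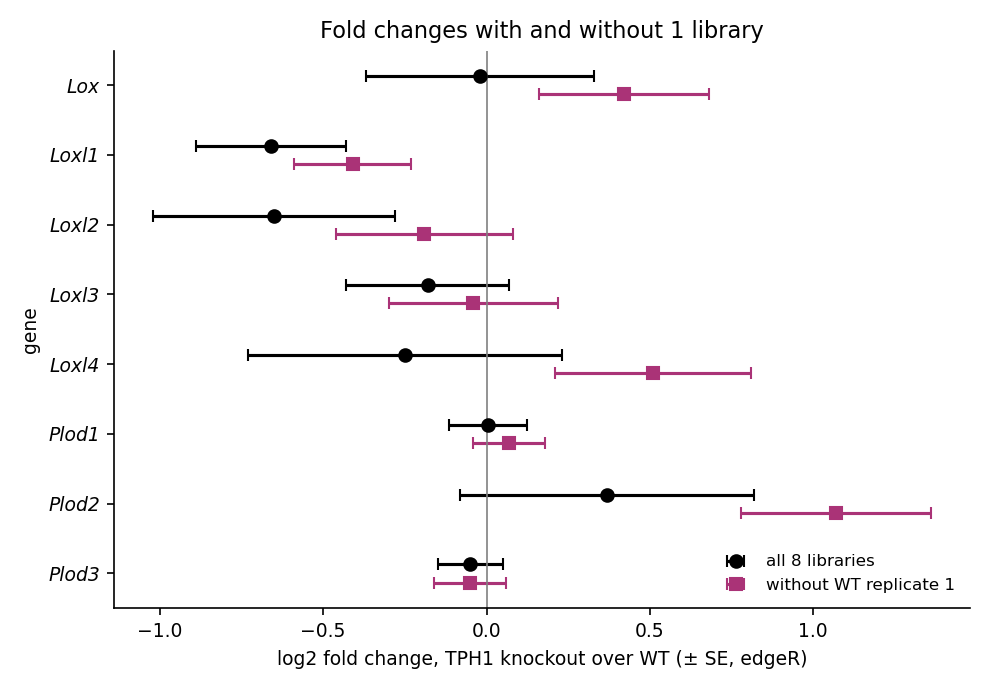
log2 fold change of each gene, TPH1 knockout over wild type, from edgeR with its SE (bars), with all 8 libraries (circles) and without wild type replicate 1 (squares). Lox and Loxl4 move from below 0 to above 0 and Plod2 moves from 0.37 to 1.07, while Plod1 and Plod3 stay near 0.

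Wild type replicate 1 stood apart for most of the set. It was the highest of the 8 libraries for 7 of the 8 genes, against 16.3% of all genes tested. Col1a1, the gene of the main collagen chain of the dermis, was at 921 CPM there and at 171 to 215 in wild type replicates 2 to 4, and Col3a1 at 889 against 229 to 282. Of the 10 fibroblast markers 7 were highest in this library and none was at 0. Their summed level was 1360 TPM in it, 490 to 897 TPM in wild type replicates 2 to 4, and 414 to 1200 TPM across the knockout group. The mean fragment length implied by the deposited effective lengths was 156.5 bases in this library and 143.6 to 146.2 in wild type replicates 2 to 4, and in the knockout group it ran from 144.5 to 162.9. With the mean fibroblast marker level as a covariate, the log2 fold changes of Lox, Loxl4 and Plod2 were 0.34 ± 0.20, 0.17 ± 0.38 and 0.78 ± 0.47 (SE), and 0 of the 8 genes were called by edgeR (adjusted p = 0.371, 0.827 and 0.378 for these). The part of fragment length in these levels was not tested.

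**Figure D3:**
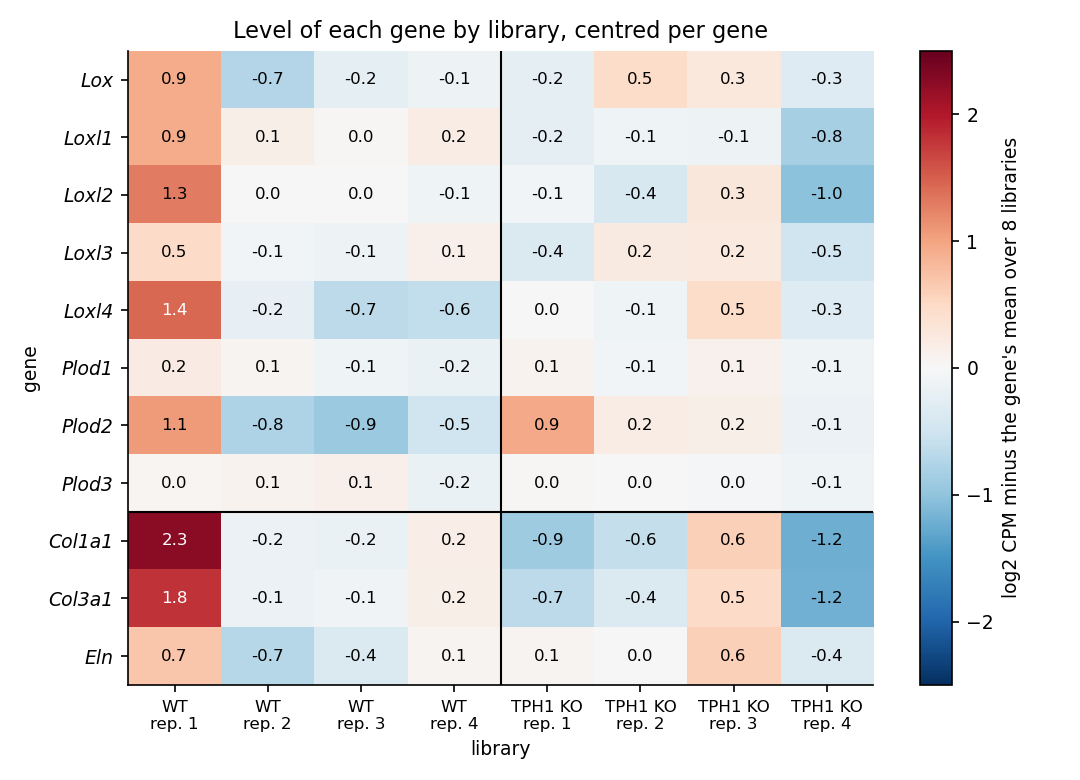
log2 CPM of the 8 genes and of Col1a1, Col3a1 and Eln in each library, minus the gene's mean over the 8 libraries (colour and printed value). Wild type replicate 1 is well above the mean for most genes, and Plod3 is close to its mean in every library.

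Loxl1 and Plod3 were the largest parts of their families in both genotypes. Among the lysyl oxidases, Loxl1 took 50.1%, 58.5%, 56.8% and 58.9% of the summed TPM in wild type replicates 1 to 4 and 52.8%, 52.0%, 42.9% and 48.4% in knockout. The share of Loxl1 averaged 56.1% ± 4.05 (SD, n = 4) in wild type against 49.1% ± 4.51 in knockout, with overlap through wild type replicate 1 alone. Lox took 10.4%, 6.73%, 9.59% and 9.76% in wild type and 11%, 16.4%, 11.6% and 14.3% in knockout. The Lox share was thus higher in every knockout library than in any wild-type library, although the level of Lox itself did not differ in this way. Shares of 1 sum are not independent, so a lower Loxl1 share means a higher sum of the other shares, but not a rise in each. The Loxl2 share averaged 22.1% ± 2.81 in wild type against 20.1% ± 3.69 in knockout (SD, n = 4 each). Loxl3 averaged 8.14% ± 1.35 against 11.3% ± 3.95, and Loxl4 4.51% ± 1.83 against 6.19% ± 1.16. For Loxl2, Loxl3 and Loxl4 the groups overlapped. These shares were not tested.

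Among the lysyl hydroxylases, Plod3 and Plod1 together made up most of the sum. Plod3 took 62.1% ± 3.59 (SD, n = 4) in wild type against 57.5% ± 4.85 in knockout, and Plod1 took 32.5% ± 0.838 and 34.8% ± 3.64. These shares depend on effective length, which for Plod3 averaged 2036 ± 165 bases in wild type against 2277 ± 284 in knockout. In CPM, Plod3 was at 55.9 ± 4.82 and 53.9 ± 2.15 (SD, n = 4 each). Plod2 took 10.5%, 3.30%, 3.28% and 4.64% in wild type and 11.2%, 7.01%, 7.32% and 5.32% in knockout, so knockout replicate 1 and wild type replicate 1 had the highest shares. Summed over each family, the oxidases came to 29.0 ± 14.9 TPM in wild type, set by 51.3 TPM in replicate 1, with 12.8 to 30.5 TPM in the knockout libraries, and the hydroxylases to 58.0 ± 11.8 TPM in wild type against 52.2 ± 6.77 in knockout (SD, n = 4 each).

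**Figure D4:**
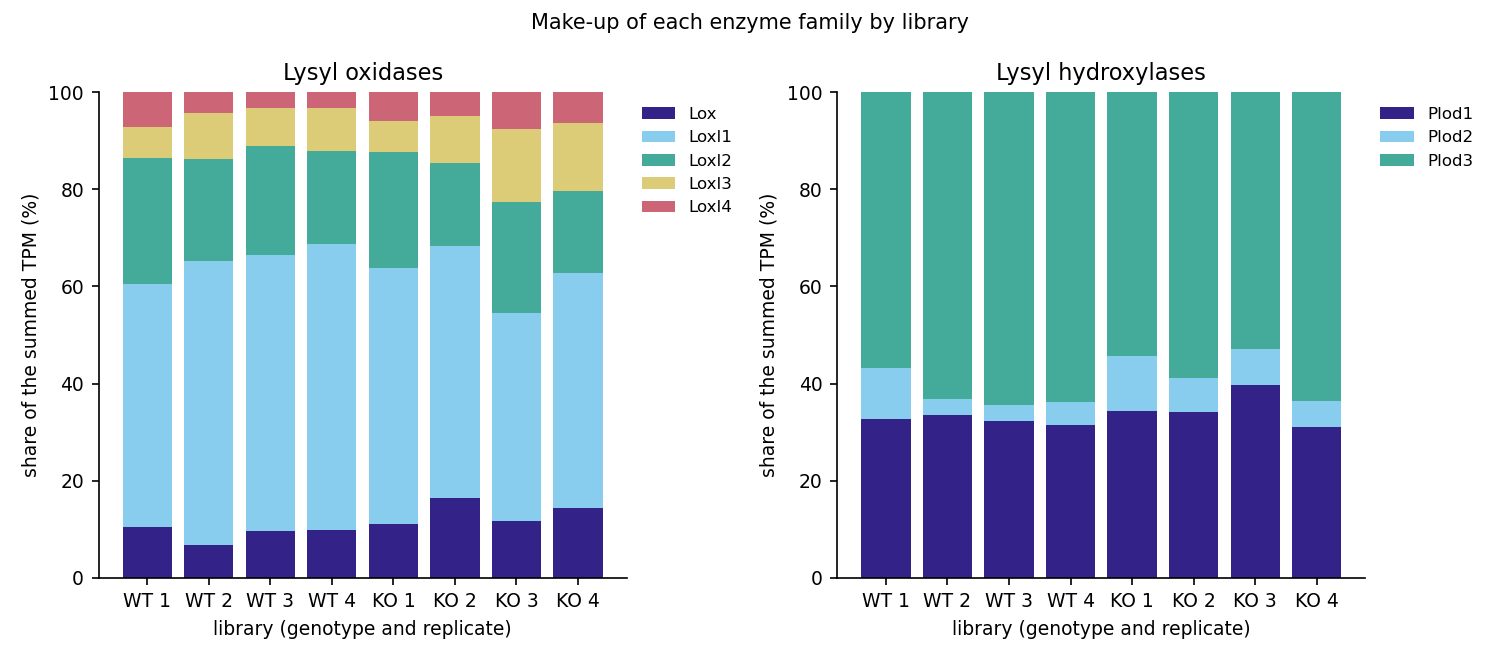
Share of each gene in the summed TPM of its family (percent, stacked to 100) in the 4 wild-type (WT) and 4 knockout (KO) libraries, lysyl oxidases on the left and lysyl hydroxylases on the right. Loxl1 is the largest oxidase share and Plod3 the largest hydroxylase share in every library, and the Lox segment is larger in each knockout library.

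Relative to Col1a1, the enzymes' main substrate in dermis, Plod2 and Loxl4 were higher in TPM in every knockout library. The log2 ratio of Plod2 to Col1a1 in TPM was -4.93, -4.36, -4.45 and -4.37 in wild type and -1.94, -2.99, -4.15 and -2.81 in knockout. For Loxl4 it was -6.02, -5.34, -5.74 and -6.06 in wild type and -4.42, -4.78, -5.10 and -4.54 in knockout. These are 2 of 8 members, where 4.14% of all genes had every knockout library above every wild-type library on this ratio. All 8 members had a higher mean ratio in knockout, as did 96.9% of all genes, by 0.37 for Loxl1 to 1.55 for Plod2 on the log2 scale. Without wild type replicate 1 this held for 7 of the 8 members and 84.4% of all genes. The difference was then -0.00714 for Loxl1, 0.171 for Loxl2, 0.252 for Plod3, 0.504 for Plod1 and 0.543 for Loxl3, while Plod2 was at 1.42. Plod2 and Loxl4 again had no overlap, which was fixed in advance because they had none with all libraries. Col1a1 itself was at 370 ± 368 CPM in wild type against 152 ± 95.6 in knockout (SD, n = 4 each; log2 fold change -1.29 ± 0.62 SE, edgeR adjusted p = 0.311), so its own level enters every one of these differences. Without wild type replicate 1 the Col1a1 log2 fold change was -0.30 ± 0.41 SE (adjusted p = 0.740, edgeR), from a wild-type mean of 186 CPM. With Col3a1 in its place, Lox joined Plod2 and Loxl4 as higher in TPM in every knockout library (7.79% of all genes). TPM depends on effective length, which for Loxl4 was 2797 bases in knockout replicate 3 and 3329 to 3595 in the others. On ratios of counts, Loxl4 to Col1a1 overlapped, with 98 and 6710 in knockout replicate 3 against 61 and 3899 in wild type replicate 2. Lox to Col3a1 also overlapped, with 237 and 8077 in knockout replicate 3 against 163 and 5344 in wild type replicate 3. Plod2 to either collagen and Loxl4 to Col3a1 did not overlap. For Loxl4 to Col3a1 the margin was narrow, with 98 and 8077 in knockout replicate 3 against 61 and 5153 in wild type replicate 2. The share of all genes without overlap on ratios of counts was not determined.

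**Figure D5:**
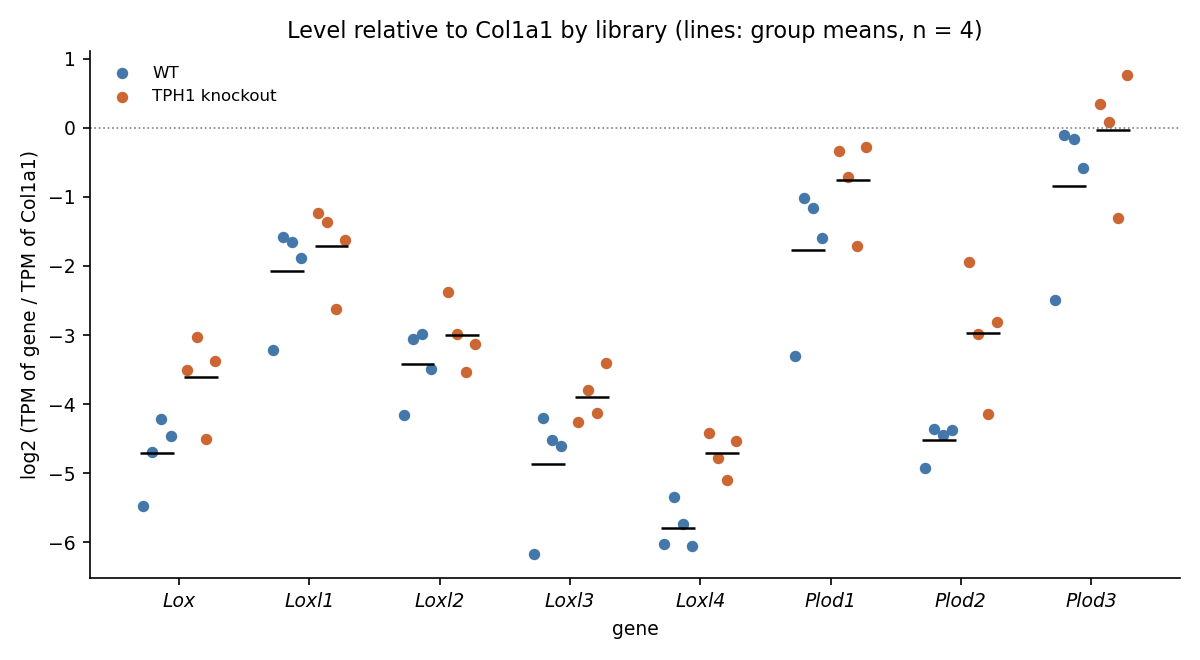
log2 ratio of the TPM of each gene to the TPM of Col1a1 (vertical axis) in wild-type and TPH1 knockout libraries (points), with group means (lines). Loxl4 and Plod2 are the genes whose points do not overlap between genotypes.

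None of the partners of the lysyl hydroxylases passed the test. Of 10 tested genes for proteins that work with these enzymes in the endoplasmic reticulum, edgeR called 0, and 4 had an unadjusted p under 0.05, against 17.6% of all genes. The median log2 fold change was -0.27, and -0.15 without wild type replicate 1. Fitted values were below 0 for 7 of the 10 and above 0 for P3h1, Colgalt1 and Colgalt2 (0.12 ± 0.22, 0.09 ± 0.10 and 0.46 ± 0.34 SE). In 4 of the 10 (P3h4, Ppib, Crtap and P4hb) all 4 knockout values were lower than all 4 wild-type values, against 5.65% of all genes. P3h4, whose protein sits in a complex with lysyl hydroxylase 1, averaged 27.5 ± 2.64 CPM (SD, n = 4) in wild type against 18.8 ± 1.61 in knockout (-0.55 ± 0.12 SE, edgeR adjusted p = 0.0879). Ppib, which encodes the folding enzyme cyclophilin B, was at 126 ± 6.57 and 96.2 ± 8.39 CPM (-0.39 ± 0.11 SE, adjusted p = 0.137). Crtap, a subunit of the collagen prolyl 3-hydroxylase complex, was at -0.37 ± 0.12 (SE, adjusted p = 0.166). Plod1 itself differed by less than its SE, as given above.

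The genes that activate, dock or supply lysyl oxidases were not called either (0 of 12 tested, median log2 fold change 0.07, and 0.24 without wild type replicate 1). The copper chaperone gene Atox1 was at 72.0 ± 16.8 CPM in wild type against 49.1 ± 6.78 in knockout (-0.55 ± 0.18 SE, edgeR adjusted p = 0.172). Postn, whose protein periostin helps Bmp1 activate lysyl oxidase, was at 517 ± 133 and 694 ± 145 CPM (0.42 ± 0.24 SE, adjusted p = 0.377). The Bmp1 relative Tll1 was at 0.63 ± 0.36 (SE, adjusted p = 0.379).

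The substrates were not called: 0 of 10 fibrillar collagen genes (median log2 fold change -0.41) and 0 of 15 genes of elastin and its scaffold (-0.12). Without wild type replicate 1 these medians were 0.01 and 0.17. Eln, which encodes elastin, was at 34.0 ± 14.8 CPM in wild type against 36.3 ± 10.3 in knockout (0.10 ± 0.30 SE, edgeR adjusted p = 0.896). Ltbp4, which guides elastic fibre assembly, was at 253 ± 18.3 and 323 ± 46.1 CPM, with every knockout library above every wild-type library (0.35 ± 0.15 SE, adjusted p = 0.259). Efemp2, whose protein fibulin-4 brings Lox to elastin, was at -0.41 ± 0.17, and the microfibril gene Mfap2 at -0.59 ± 0.28 (SE, adjusted p = 0.263 and 0.309). Col24a1, a minor fibrillar collagen gene, was at 0.75 ± 0.40 (SE, adjusted p = 0.358).

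Low oxygen and TGF-beta are known to raise several of these enzymes, so their target genes were read beside them. Of 12 hypoxia target genes edgeR called 0, with a median log2 fold change of 0.06. P4ha2, a collagen prolyl hydroxylase gene, was at 26 ± 3.18 CPM in wild type against 33.8 ± 4.35 in knockout, with no overlap (0.38 ± 0.13 SE, adjusted p = 0.206). Pdk1 and Adm were at 0.27 ± 0.13 and -0.71 ± 0.42 (SE, adjusted p = 0.332 and 0.399). Of 10 TGF-beta response genes edgeR also called 0, with a median of -0.10, and -0.02 without wild type replicate 1. The ligand gene Tgfb1 was at 34.7 ± 5.30 CPM in wild type against 24.3 ± 3.07 in knockout, with no overlap (-0.51 ± 0.14 SE, adjusted p = 0.135). The ligand gene Tgfb3 was at 0.30 ± 0.16 (SE, adjusted p = 0.363). Beside these, the list of 14 immediate early and stress genes, which move with tissue handling, had 1 gene called lower by edgeR and 13 with an unadjusted p under 0.05. Over all genes, edgeR called 0.651% in either direction, and 17.6% had an unadjusted p under 0.05. Without wild type replicate 1 this list had 0 genes called. It had a summed level of 2210 to 9280 TPM in wild type and 1590 to 3040 in knockout, and none of its genes was at 0. With its mean level as a covariate, Lox was at 0.74 ± 0.50, Plod2 at 1.01 ± 0.75 and Loxl2 at -0.29 ± 0.59 (SE), and Loxl1 at the value given above. Of the 8 members 0 were called (edgeR adjusted p = 0.732, 0.766 and 0.929 for the first 3).

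Because hypoxia acts through a short DNA element, upstream sequences are shown for 3 of 8 members, from the RefSeq promoter table (GRCm38.p6). That the other members are not shown does not mean that they have no entry there, and their upstream sequences were not examined. Each sequence shown runs 5′ to 3′ on the gene's strand over the 250 bases before the annotated start. Capitals mark ACGTG or GCGTG, the core of the hypoxia response element, on either strand, so CACGT and CACGC are the reverse matches, and CACGTG would count on each strand.
Plod3, chr5:136986769-136987018, plus strand: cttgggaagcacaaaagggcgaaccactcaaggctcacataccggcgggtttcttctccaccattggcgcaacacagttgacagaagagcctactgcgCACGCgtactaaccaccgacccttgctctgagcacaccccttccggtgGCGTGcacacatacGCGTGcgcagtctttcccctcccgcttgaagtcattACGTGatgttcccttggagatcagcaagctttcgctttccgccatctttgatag
Plod1, chr4:147936777-147937026, minus strand: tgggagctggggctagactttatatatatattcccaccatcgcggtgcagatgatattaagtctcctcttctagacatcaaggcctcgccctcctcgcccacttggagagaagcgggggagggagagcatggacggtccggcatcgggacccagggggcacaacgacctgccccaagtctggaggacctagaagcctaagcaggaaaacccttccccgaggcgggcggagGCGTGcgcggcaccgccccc
Loxl4, chr19:42612807-42613056, minus strand: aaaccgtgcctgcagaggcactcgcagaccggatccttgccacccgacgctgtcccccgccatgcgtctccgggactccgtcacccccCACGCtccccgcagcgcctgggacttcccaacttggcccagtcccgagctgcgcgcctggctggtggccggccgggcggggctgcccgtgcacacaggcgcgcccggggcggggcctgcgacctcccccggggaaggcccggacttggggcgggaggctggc
Plod3 held 4 matches and Plod1 and Loxl4 1 each. Among 32851 upstream windows of the same length in that table, 38.6% held at least 1 match and 16.7% at least 2. A match describes letters only and says nothing about binding.

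The genes whose pattern over the 8 libraries was most like each member were found by Pearson's r of log2 CPM, with no p because they were picked as the highest over all other genes tested. Loxl2 was most like Col6a2, a collagen VI chain gene (r = 0.965), and Plekho2 (0.965). Loxl3 was most like Pxdn, which encodes the peroxidase that crosslinks collagen IV (r = 0.985), and Col15a1, a basement membrane zone collagen gene (0.978). Loxl1 was most like Cyba and Oasl2 (r = 0.977 and 0.972). For both the knockout values were all lower than the wild-type values (5.65% of all genes). That follows largely from picking them by the pattern of Loxl1, whose groups were also apart. Lox was most like Zfp800 and Rbm27 (0.968 and 0.957), and Loxl4 was most like Rnf213 and Rab3gap2 (0.992 and 0.980). For the hydroxylases the closest genes were Arhgap4 and Sec23ip for Plod1 (0.972 and 0.968), Fam13b and the cytokine gene Lif for Plod2 (0.940 and 0.931), and Rae1 and Hnrnpul2 for Plod3 (0.946 and 0.934). All of these r values stayed at or above 0.897 without wild type replicate 1, though the remaining libraries had also served to pick the genes.

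Of the 10 fibroblast markers edgeR called 0, and 3 had an unadjusted p under 0.05, against 17.6% of all genes. Their median log2 fold change was -0.32, and 0.08 without wild type replicate 1. Markers of other cell types were read in the same fit, and none was called. The tested markers numbered 8 for keratinocytes, 7 for hair matrix, 10 for skeletal muscle, 8 for adipocytes, 7 for endothelium, 7 for vascular smooth muscle and pericytes, 7 for macrophages and 2 for chondrocytes, with median log2 fold changes of -0.38, 2.33, 0.46, -0.56, 0.04, 0.11, -0.44 and 0.11. Of the markers in all these lists, the cartilage gene Matn3 was the only one at 0 in every library. The hair matrix sum ranged from 8.54 to 115 TPM in wild type and from 7.57 to 1080 in knockout, where replicate 3 was the highest, and the adipocyte sum from 3950 to 5860 and from 1200 to 4440. The highest marker of each of these lists was Krt71 for hair matrix (14.2 ± 22.4 CPM in wild type against 157 ± 297 in knockout), Cfd for adipocytes (1270 ± 284 and 774 ± 304), Pecam1 for endothelium (54.5 ± 15.6 and 59.1 ± 18.7), Myh11 for smooth muscle (125 ± 45.7 and 153 ± 67.1), C1qa for macrophages (48.9 ± 8.84 and 32.1 ± 8.44) and Sox9 for chondrocytes (81.1 ± 23.1 and 106 ± 30.3; SD, n = 4 each).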

How the data were processed

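Bulk RNA-seq of dorsal skin gave 1 RSEM table per library, with 4 wild-type and 4 knockout libraries. Per the labels' protocols, a NEBNext Ultra kit was used on total RNA. Named in the submitters' processing notes, without role or order, are the build GRCm38 and the tools STAR 2.7.6a, RSEM 1.31, DESeq and DESeq2. The deposited expected counts are RSEM estimates per gene, not normalized, and were rounded. The deposited TPM values, per the file headers, scale counts to effective length and library. The deposited FPKM values entered no test. The authors' matrix of normalized signal (17382 genes) served as an alternative for family shares.

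edgeR 4.0.16 in R 4.3.3 was fitted over all genes that filterByExpr kept by genotype (minimum count 10, minimum total 15), with TMM scaling, a robust quasi-likelihood test and Benjamini-Hochberg adjustment over all 16908 genes. Each SE was taken as |log2 fold change| over the root of F. Fits were tested on simulated data. Alternatives used other scalings, filters, length offsets, covariates, DESeq2 1.42.0, limma 3.58.1 on log2(TPM + 1) and each library left out. Replicate numbers follow record order and pair nothing. Coordinates and overlaps came from GENCODE M21 (GRCm38).

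The 8 genes, the 16 lists and the alternatives were chosen with earlier results of these data known. Named were the members, Tph1, Col1a1, Col3a1, Eln, the 3 smallest p of each of the 6 pathway lists, the 2 genes most like each member and the highest marker of each cell type list. P4hb, P3h1, Colgalt1 and Colgalt2 were named after their values were seen, and 1 gene that this rule names is not reported here. The 3 pathway genes not tested were Col2a1, Tll2 and Ca9. Depth was 20531601 to 24678638 counts per library, and Loxl4 and Loxl3 had the lowest counts of the 8 genes.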

Additional observations from a re-analysis of the deposited data

Results flagged for a closer look

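Wild type replicate 1 lay far above the other 3 wild-type libraries for 4 of the 8 genes and for both collagen genes compared with them, with a gap to the nearest library that, as a share of the group's range, passed Dixon's critical value for groups of 4. Loxl1 was at 55.8 CPM in it and 29.7 to 33.2 in the others. Loxl2 was at 47.3 CPM against 17.8 to 19.3, Loxl4 at 8.43 against 1.98 to 2.71, and Plod2 at 17.4 against 4.36 to 5.85. Col1a1 was at 921 CPM against 171 to 215 and Col3a1 at 889 against 229 to 282. The share of Plod3 in the hydroxylase sum was 56.7% in it and 63.2% to 64.5% in the others. Of 70 groups of 4 examined, 7 met this criterion, where chance gives about 1 in 20, and all 7 were this library. Over all genes tested it met the criterion upwards in 2.32%.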

How the results depend on the processing

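None of the 8 genes was called under any of the 19 alternatives, the lowest adjusted p being 0.0994 for Loxl1 with DESeq2. The count of called genes over all tested, 110 in the reported fit, was 30, 5 and 167 with the muscle covariate, with the handling covariate and without both wild type replicate 2 and knockout replicate 3. It was 994 with DESeq2 and 29 with limma on TPM, and it ran from 8 (without knockout replicate 2) to 170 (without knockout replicate 3) when 1 library was left out, moving by over 1.5 times for every library but wild type replicate 2. Loxl1, Loxl2, Plod2 and Plod3 kept the sign of their log2 fold change throughout, with ranges of -0.81 to -0.39, -1.01 to -0.19, 0.09 to 1.07 and -0.25 to -0.01. The sign turned for the other 4, whose reported values were smaller than their SE. Lox was at 0.01 with upper quartile scaling and with the length offset, 0.02 with limma, and 0.20, 0.74 and 0.34 with the muscle, handling and fibroblast covariates, and it ran from -0.23 to 0.42 with 1 library left out. Loxl3 was at 0.06 with the length offset and 0.03 with the handling covariate. Loxl4 was at 0.06 and 0.17 with the handling and fibroblast covariates and ran from -0.47 to 0.51 with 1 library left out. Plod1 was at -0.01 with RLE scaling and with DESeq2, -0.0022 and -0.05 with the muscle and handling covariates, -0.02 without both libraries and -0.04 with limma, and it ran from -0.06 to 0.07 with 1 library left out. The cause was not tested. Leaving out 1 library was added for shares and collagen ratios after seeing the data. No paired analysis was possible because the labels carry no replicate numbers shared between genotypes.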
